A study of Mus musculus with 22 samples.

Results

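Apoe encodes apolipoprotein E, and its row is 1 of the 13685 gene rows in a table of single-cell counts from mouse hippocampus. The member was fixed by its name alone, so its counts could be read in every cell class and every group. Apolipoprotein E packs cholesterol and phospholipid into particles that cells take up through receptors on their surface. In the healthy brain astrocytes are its main source. Microglia are known to raise it in amyloid and tau models and after demyelination, as part of a state called disease-associated microglia that in part needs the lipid receptor Trem2.

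Cells were captured by Drop-seq, which catches single cells in droplets with barcoded beads and reads the 3' ends of their transcripts. The 22 animals, all labelled with the mixed strain Fvb/B6, fell into 6 groups. There were 4 old rTg4510 animals (32 to 38 weeks), 3 old P301L (41 to 48 weeks), 3 old rTta (33 weeks), 5 old WT (32 to 40 weeks), 3 young rTg4510 (4 to 5 weeks) and 4 young WT (5 to 6 weeks). The rTg4510 line expresses human tau with the P301L mutation from a tetracycline-responsive transgene, switched on by a transactivator under the Camk2a promoter, so that tau is made mainly in forebrain excitatory neurons. The WT animals were littermates that carry neither transgene. The labels do not describe the other pair of genotypes. Their names stand for the tau responder without a transactivator (P301L) and for the transactivator without the responder (rTta). The ages are those of the sample labels, whereas the series' design text gives 2 to 4 weeks for the young animals. Each sample is labelled with 1 animal number, and replicates here are animals.

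Apoe (ENSMUSG00000002985.16) lies on the minus strand of mouse chromosome 7, from 19696109 to 19699188 on mm10. GENCODE annotates 11 transcripts. The transcript Apoe-206 has 4 exons, with the start codon in exon 2 and the stop codon in exon 4, and 0 annotated genes overlap Apoe. Its nearest annotated neighbours are Tomm40, a mitochondrial import channel, 2124 bases away, and Apoc1, another apolipoprotein, 3448 bases away. Drop-seq reads come from the 3' end of a transcript, so the counts do not tell the transcripts apart. The 250 bases upstream of the gene's start, from RefSeq on GRCm38.p6, chr7:19699189-19699438, minus strand, are shown because the RNA counted in every class is made from this gene. Capitals mark the last 50 bases before it.
Apoe upstream region: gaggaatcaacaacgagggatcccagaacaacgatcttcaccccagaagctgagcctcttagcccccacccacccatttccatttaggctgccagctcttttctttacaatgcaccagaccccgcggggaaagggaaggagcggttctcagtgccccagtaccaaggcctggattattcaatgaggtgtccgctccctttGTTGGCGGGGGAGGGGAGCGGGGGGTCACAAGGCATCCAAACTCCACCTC
The region had 57.2% G and C, against a median of 52.4% over 32851 promoters of this length. Read on both strands, it held 0 exact matches to TATAAA (found in 12.4% of those promoters), GGGCGG (32.7%), CCAAT (33.8%) or CACGTG (6.02%). This says only that these letters are not in this window.

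Each animal had between 780831 and 6039656 counts in all, and 27198 barcodes with at least 300 counts were kept, with medians of 638 to 2021 counts per cell among animals. Clustering without Apoe gave 26 clusters, whose markers placed 22361 cells in named classes, while 4837 (17.8%) stayed unnamed. All 10 astrocyte markers and all 10 microglia markers were counted in the class they name in every animal with at least 20 cells of it. In excitatory neurons Mapt, the tau gene, stood at 1370 to 1974 CPM (an animal's counts of a gene in a class, per 1000000 counts) in all 7 rTg4510 animals, against 453 to 634 CPM in the other 15. Old P301L replicate 3 and old rTta replicate 3 shared 184 cell barcodes, while no other pair of animals shared more than 6. Of these, 176 were kept in both animals and 172 fell in the same cluster, and they held 25.4% of the counts of the P301L animal and 13.5% of those of the rTta animal. Results that rest on these animals were repeated without them. No P301L or rTta animal had a count of 270 genes that each of the other 16 animals counted, and 801 genes showed the opposite, so the table has 2 parts, and a comparison of P301L or rTta with other animals cannot tell group and part apart. CPM were therefore taken over the 12614 genes counted in all 22 animals. Apoe itself was counted in all 22 animals.

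Astrocytes carried the most Apoe in 5 of the 6 groups. In old rTg4510 animals astrocytes averaged 32711 ± 6531 CPM (SD, n = 4), and in old WT animals 28460 ± 6131 CPM (SD, n = 5). Microglia stood first in old rTg4510 animals, at 39716 ± 12786 CPM (SD, n = 4), but above the astrocytes of the same animal in only 2 of 4, and the ranges overlapped. In old WT animals microglia held 4395 ± 3400 CPM (SD, n = 5), below astrocytes, oligodendrocyte precursors (6551 ± 2092 CPM) and oligodendrocytes (5475 ± 1050 CPM). Astrocytes were above the precursors in 5 of 5 animals, without overlap. Precursors, oligodendrocytes, microglia and endothelial cells (3441 ± 2333 CPM) followed in that order, and the ranges of neighbours among these overlapped. Neurons were lowest in every group, with excitatory neurons at 1277 ± 741 CPM in old rTg4510 and 988 ± 652 CPM in WT animals of that age. In young rTg4510 animals microglia stood second at 17482 ± 1253 CPM (SD, n = 2), below astrocytes in both animals, and in young WT animals they averaged 2935 ± 2974 CPM (SD, n = 4), and their range overlapped those of the precursors, mural cells and oligodendrocytes.

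**Figure D1:**
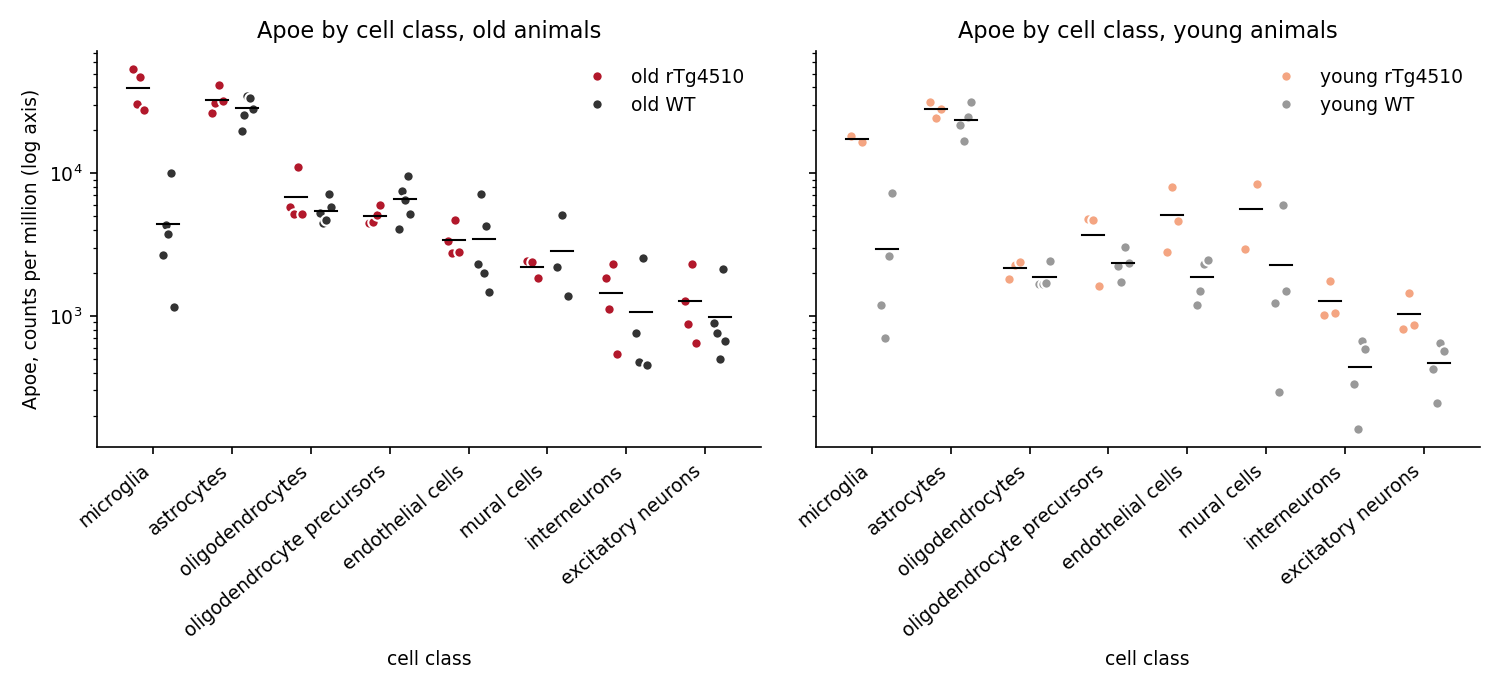
Apoe in CPM (log axis) in 8 cell classes of old animals (left) and young animals (right), with 1 point per animal that had at least 20 cells of the class and the mean as a bar. Microglia of old rTg4510 animals sit at 27556 to 53987, near the level of their astrocytes, and microglia of WT animals sit at or below 10080 at both ages.

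The study's main contrast set old rTg4510 against old WT animals. In microglia, Apoe stood at 53987, 30393, 46927 and 27556 CPM in the 4 old rTg4510 animals, against 2677, 4313, 3759, 10080 and 1147 CPM in the 5 old WT animals. Every rTg4510 animal was above every WT animal, and the highest WT value was that of replicate 4. Apoe rose by 3.36 ± 0.67 (SE) on the log2 scale (edgeR quasi-likelihood test, Benjamini-Hochberg adjusted p = 0.0062). In that comparison 202 of 4061 genes tested were called (4.97%), 146 of them higher (3.60%). The call held without any 1 animal, with log2 changes between 3.10 and 3.99, and was lost when only cells with at least 1000 counts were used (log2 change 2.71, adjusted p = 0.17).

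**Figure D2:**
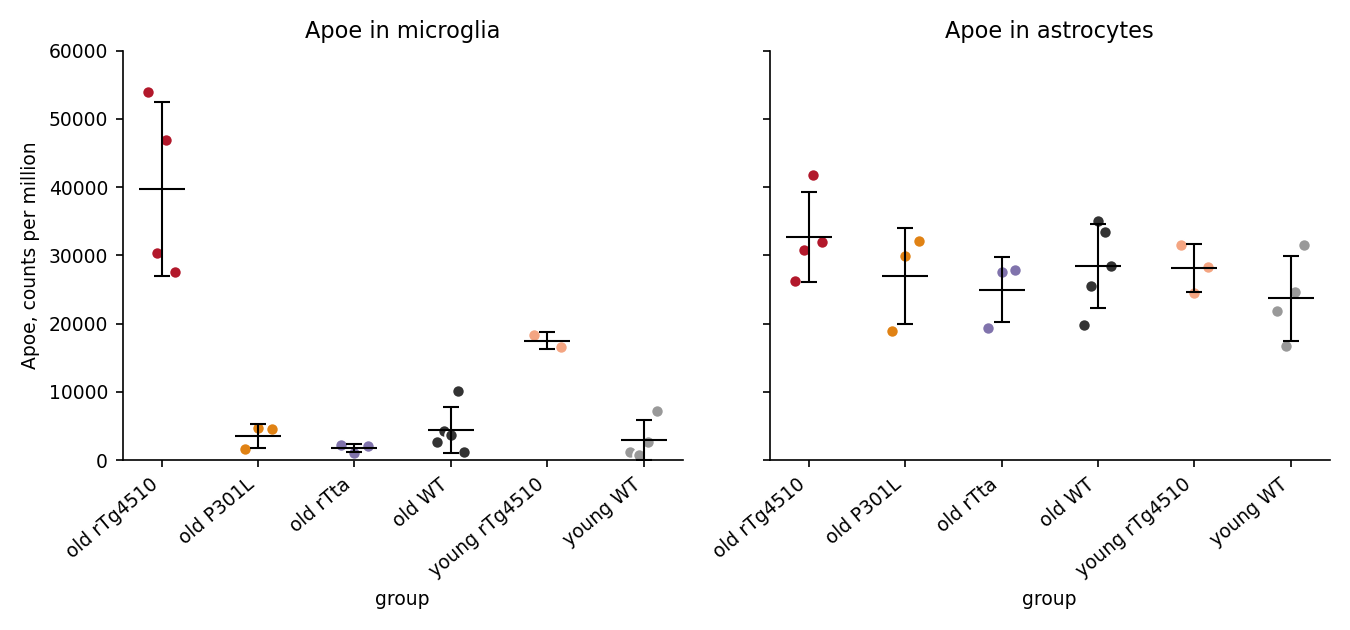
Apoe in CPM in microglia (left) and astrocytes (right) of 6 groups, with 1 point per animal, the mean as a wide bar and the SD as whiskers. In microglia the 4 old rTg4510 animals sit between 27556 and 53987 and the 5 old WT animals between 1147 and 10080, while in astrocytes the groups overlap.

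Astrocyte markers were read beside Apoe, since droplets of other cells also held astrocyte RNA. The summed level of the 10 astrocyte markers in microglia was 1848 to 3895 CPM in old rTg4510 animals and 1428 to 5624 CPM in old WT animals. Per unit of that sum, Apoe stood at 29.2, 15.9, 12.0 and 13.5 in old rTg4510 microglia, against 0.602, 0.767, 0.874, 2.16 and 0.803 in old WT microglia. In astrocytes themselves the same ratio ran from 0.64 to 1.30 in old rTg4510 animals and from 0.48 to 1.07 in old WT animals. All 4 old rTg4510 values in microglia were thus above the range in astrocytes, whereas 4 of the 5 old WT values lay within it. The ratio refers to astrocytes only. In the unnamed cluster 25, described below, with most of its cells in old rTg4510 replicate 3, it was 10.5 to 21.4. The part of RNA from such cells in microglia was not tested. Among microglia with 0 astrocyte marker counts, Apoe stood at 56892, 33736 and 39080 CPM in the 3 old rTg4510 animals that kept at least 20 such cells, against 1299 CPM in the 1 old WT animal that did. All old P301L animals (1499, 3944 and 5252 CPM) and all old rTta animals (1864, 1176 and 1986 CPM) kept at least 20 such cells. In young rTg4510 replicate 1 the 18 microglia with 0 astrocyte marker counts held 1918 CPM, against 18368 CPM over all its microglia. The part of astrocyte RNA in the WT and young values was not tested.

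The animals with a single transgene were compared with old rTg4510 and with old WT animals. Microglia held 1574, 4667 and 4579 CPM of Apoe in old P301L animals and 2167, 1067 and 2080 CPM in old rTta animals, all within the range of old WT animals except the rTta value of 1067. Old rTg4510 microglia were higher than those of P301L animals by 3.60 ± 0.83 on the log2 scale (SE, edgeR adjusted p = 0.016, with 7.29% of genes called) and higher than those of rTta animals by 4.66 ± 0.88 (adjusted p = 0.0055, with 3.84% called). The groups did not overlap in either case. Against P301L the call was lost without old P301L replicate 1 (adjusted p = 0.12) or 2 (adjusted p = 0.058), and without both animals that share barcodes (adjusted p = 0.059), at log2 changes of 3.25, 3.82 and 3.81. Against rTta it was lost without old rTta replicate 2 (log2 change 4.41, adjusted p = 0.050). Against old WT neither single transgene passed the threshold, with log2 changes of -0.24 ± 0.70 for P301L (edgeR adjusted p = 0.91, with 2.56% of genes called) and -1.30 ± 0.73 for rTta (adjusted p = 0.43, with 1.67% called). P301L and rTta microglia differed by 1.06 ± 0.79 (edgeR adjusted p = 0.84, with 0.788% of genes called). The comparisons with old rTg4510 share its 4 animals, those with old WT share its 5, and both single transgenic groups lie in the other part of the table. The old P301L animals, at 41 to 48 weeks, were also older than the old rTg4510 animals, at 32 to 38 weeks. Genotype, age and part of the table cannot be told apart there.

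At the young age the same contrast had fewer microglia to rest on. Young rTg4510 replicates 1 and 2 held 18368 and 16596 CPM of Apoe, against 1195, 703, 2613 and 7228 CPM in the 4 young WT animals. Young rTg4510 replicate 3 had 6 microglia, with 5567 CPM, and was left out of the test. Both tested rTg4510 animals were above every WT animal, with a log2 change of 2.59 ± 0.79 (SE, n = 2 against 4), but the edgeR adjusted p was 0.64 (unadjusted p = 0.0050), where 6 of 4061 genes (0.148%) were called, all of them higher. The young difference passed the threshold under none of the alternatives run, with adjusted p between 0.074 and 0.92.

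Age was compared within each genotype. Old rTg4510 microglia stood above both young rTg4510 animals in each of 4 animals, by a log2 change of 1.34 ± 0.86 that did not pass the threshold (edgeR adjusted p = 0.90, with 0.0985% of genes called). Old WT and young WT microglia overlapped, with a log2 change of 0.57 ± 0.65 (edgeR adjusted p = 0.84). The difference of the genotype effect between the ages, old minus young, was 0.77 ± 1.05 on the log2 scale (edgeR adjusted p = 0.94) and took the opposite sign, -0.16, without young WT replicate 4. Without old WT replicate 4, the change between old WT and young WT took the opposite sign too, at -0.057. A dependence of the genotype difference on age was not detectable with these animals, which does not show that there is none.

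Astrocytes showed no called difference in Apoe in any of 10 comparisons. Apoe stood at 26248, 30857, 41777 and 31963 CPM in old rTg4510 astrocytes, against 19856, 25567, 35057, 33405 and 28415 CPM in old WT astrocytes. The groups overlapped, and the log2 change was 0.28 ± 0.22 (SE, edgeR adjusted p = 0.77, where 22 of 5315 genes were called, or 0.414%). In young animals astrocytes held 31568, 24532 and 28356 CPM in rTg4510 and 21848, 16713, 24696 and 31549 CPM in WT animals, again overlapping, with a log2 change of 0.23 ± 0.25 (edgeR adjusted p = 0.90). Old P301L astrocytes (19004, 29952 and 32109 CPM) and old rTta astrocytes (19437, 27606 and 27929 CPM) lay within or just below the range of old WT astrocytes. The 10 fitted changes ran from -0.16 to 0.44 on the log2 scale. Few genes of any kind were called in astrocytes, with 1.35% between old rTg4510 and rTta, 0.282% between old rTta and WT, 0.132% between old P301L and rTta, 0.0188% between old P301L and WT and 0% in the other 5. When counts of the old comparison were simulated, edgeR found 32.3% of the astrocyte genes given a log2 difference of 1 and 93.8% of those given 2. Those genes were drawn at random from all genes tested, whereas Apoe ranked 2 or 3 by counts in the astrocytes of every animal. The rates are therefore not those of Apoe, for which the SE of 0.22 gives the precision. A moderate difference in Apoe could still go uncalled.

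The difference between the classes was tested within animals. In old rTg4510 animals microglia held 2.06, 0.985, 1.12 and 0.862 times the Apoe CPM of the astrocytes of the same animal. In old WT animals they held 0.135, 0.169, 0.107, 0.302 and 0.0403 times that level. The mean log2 difference, microglia minus astrocytes, was 0.24 ± 0.55 (SD, n = 4) in old rTg4510 and -3.01 ± 1.06 (SD, n = 5) in old WT animals, 3.25 apart (exact two-sided permutation test over animals, p = 0.0159, the smallest that 4 against 5 animals allow). Adjusted over the 8 comparisons run in this way, p was 0.127, and the groups did not overlap. With these numbers of animals no comparison could pass after adjustment, so the adjusted value decides nothing.

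Of all Apoe counts of an animal, microglia gave 33.9% on average (lowest 7.08%, highest 55.9%, n = 4) in old rTg4510 animals, against 2.60% (0.808% to 3.92%, n = 5) in old WT animals. Astrocytes gave 33.8% ± 15.4 (SD) and 50.8% ± 13.9 in the same groups. Microglia were also a larger share of the kept cells, 13.8% ± 7.07 in old rTg4510 animals against 5.75% ± 2.00 in old WT animals, and the share of cells depends on which clusters were named. Old rTg4510 replicate 3 had the 7.08%, and 62.8% of its Apoe counts fell in unnamed clusters.

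Oligodendrocytes, the myelin-forming cells, differed with age in both genotypes. Apoe stood at 5789, 5191, 10968 and 5172 CPM in old rTg4510 oligodendrocytes, against 1799, 2281 and 2399 CPM in young rTg4510 ones. It stood at 5267, 4498, 4711, 7131 and 5768 CPM in old WT oligodendrocytes, against 1681, 1669, 1706 and 2414 CPM in young WT ones. Old and young animals did not overlap in either genotype.

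**Figure D3:**
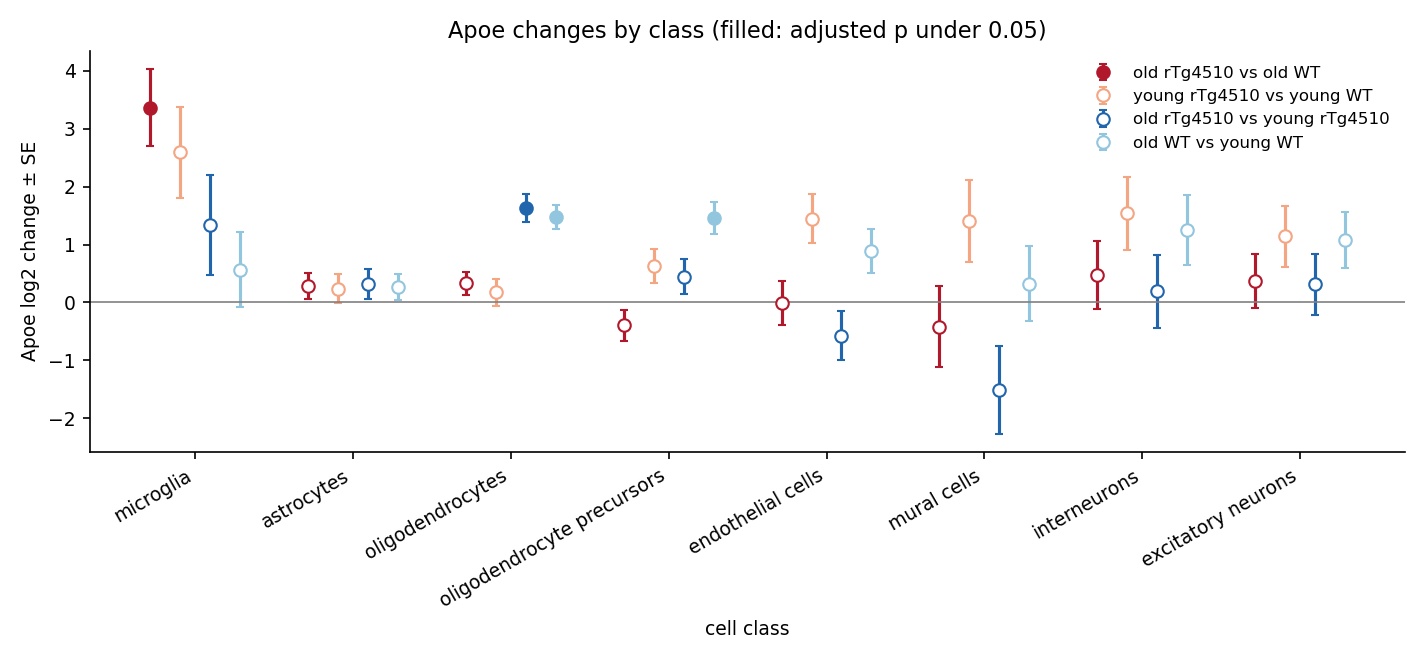
Log2 change of Apoe with its SE from edgeR in 8 cell classes for the 2 genotype comparisons and the 2 age comparisons, with filled points where the adjusted p was under 0.05. The largest change is that of microglia between old rTg4510 and old WT animals, at 3.36, while both age comparisons are filled in oligodendrocytes, at 1.63 and 1.48, and that of WT in the precursors, at 1.46.

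The log2 change of old against young animals was 1.63 ± 0.24 in rTg4510 (edgeR adjusted p = 2.2e-05, with 2.28% of 5926 genes called) and 1.48 ± 0.21 in WT (adjusted p = 9.3e-06, with 3.24% called). Both held under every alternative run, including the leaving out of each animal. Old rTg4510 and old WT oligodendrocytes differed by 0.33 ± 0.20 (edgeR adjusted p = 0.95, with 0.152% called). Astrocyte markers summed to 1704, 1990, 7356 and 2883 CPM in old rTg4510 oligodendrocytes, 1331, 2066 and 2031 CPM in young rTg4510 ones, 1437 to 3946 CPM in old WT and 893 to 1774 CPM in young WT ones. They were highest in old rTg4510 replicate 3, which also had the highest Apoe. In oligodendrocyte cluster 8 alone, without cluster 11, which carries more astrocyte marker counts, the log2 changes were 1.58 and 1.43, and both calls held.

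Old rTg4510 oligodendrocytes also held more Apoe than those of the single transgenic groups, at 3497, 2235 and 3992 CPM in old P301L and 2608, 2644 and 3351 CPM in old rTta animals, with no overlap. The log2 change was 1.24 ± 0.23 against rTta (edgeR adjusted p = 0.0015, with 1.25% of genes called) and 1.08 ± 0.23 against P301L (adjusted p = 0.0195, with 1.27% called). The call against P301L was lost without old P301L replicate 1 or 2 or old rTg4510 replicate 3 (adjusted p = 0.086, 0.14 and 0.083). Old rTta oligodendrocytes were lower than those of old WT animals, by a log2 change of -0.91 ± 0.22 (edgeR adjusted p = 0.024, with 1.35% called), a call lost without any 1 of the 3 rTta animals or without old WT replicate 4 or 5 (adjusted p = 0.050 to 0.20). Old P301L oligodendrocytes differed from old WT by -0.75 ± 0.22 (edgeR adjusted p = 0.10, with 0.574% called). All these comparisons cross the 2 parts of the table, and the old P301L animals were older than those of the other groups. Old rTg4510 excitatory neurons moved the same way, by 1.48 ± 0.56 against rTta and 1.74 ± 0.58 against P301L. Old rTta against old WT gave -1.11 ± 0.54 there. In interneurons the changes were 1.90 ± 0.73 against rTta and -1.43 ± 0.73 for rTta against WT. None of these neuron changes was called, and the direction was not particular to oligodendrocytes.

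In oligodendrocyte precursors, which divide and give rise to oligodendrocytes, Apoe stood at 4076, 7479, 6492, 9503 and 5207 CPM in old WT animals, against 2221, 1738, 3032 and 2364 CPM in young WT animals. The groups did not overlap, and Apoe rose by 1.46 ± 0.27 on the log2 scale (SE, edgeR adjusted p = 0.012, where 6 of 3977 genes, or 0.151%, were called). Precursors had 2 clusters, and cluster 10, led by Gpr17, Enpp6 and Bmp4, genes of cells committed to become oligodendrocytes, held 1 to 12 cells per old WT animal and 17 to 43 per young WT animal, where its Apoe was 518 to 845 CPM. In cluster 18 alone, led by Pdgfra, Apoe was 4606, 7497, 7028, 9202 and 5846 CPM in old WT and 2874, 2177, 5080 and 3473 CPM in young WT animals, which overlapped, and the log2 change of 1.01 stayed called (edgeR adjusted p = 0.017). Astrocyte markers summed to 3288 to 5482 CPM in old WT precursors and 1834 to 2811 CPM in young WT precursors, and their part in the result was not tested. Other classes of old WT animals were also higher than those of young WT animals, though none was called. The log2 changes were 1.08 ± 0.48 in excitatory neurons, 1.26 ± 0.60 in interneurons and 0.88 ± 0.38 in endothelial cells. The direction was thus not particular to precursors and oligodendrocytes. The call was lost without old WT replicate 4 or young WT replicate 1, 2 or 4 (adjusted p = 0.053 to 0.075). Old rTg4510 precursors, at 4467, 4556, 5117 and 5953 CPM, overlapped with those of old WT animals. Against young rTg4510 precursors, at 4806, 4677 and 1632 CPM, the log2 change was 0.44 ± 0.30 (edgeR adjusted p = 0.89). The difference between the age changes, rTg4510 minus WT, was -1.02 ± 0.40 and did not pass the threshold either (edgeR adjusted p = 0.99).

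Vascular cells and neurons gave no call for Apoe in any comparison, and few genes of these classes were called at all. Endothelial cells held 2793, 7984 and 4612 CPM in young rTg4510 animals, against 1198, 1498, 2294 and 2450 CPM in young WT animals, without overlap, and the log2 change of 1.45 ± 0.42 had an edgeR adjusted p of 0.46. In that comparison 0 of 3904 genes were called by edgeR, and 229 had an unadjusted p under 0.05. Endothelial genes were called in 0.128% between old rTg4510 and rTta, 0.205% between old rTta and WT and 0.0256% between old P301L and rTta. In excitatory neurons Apoe ran from 199 to 2317 CPM over 22 animals, with old rTg4510 at 1272, 875, 2317 and 642 CPM and old WT at 897, 762, 496, 2125 and 662 CPM. Old rTg4510 replicate 3 and old WT replicate 4 were high in both neuron classes. Of 9345 genes tested in excitatory neurons, 0.0963% were called between old rTg4510 and WT, 0.0749% between young rTg4510 and WT, 0.0107% between old and young WT, 0.460% between old rTg4510 and rTta, 0.653% between old rTg4510 and P301L, 0.471% between old rTta and WT and 0.139% between old P301L and rTta. Of 6475 genes tested in interneurons, 0.0309% were called between rTg4510 and WT at either age, 0.139% between old rTg4510 and rTta and 0.0772% between old rTta and WT. Apoe per unit of summed astrocyte markers was 0.20 to 1.04 in excitatory neurons and 0.21 to 1.41 in interneurons, against 0.38 to 1.30 in astrocytes. Mural cells, which wrap vessels, carried 4059 to 14027 CPM of astrocyte markers, and their 291 to 8375 CPM of Apoe was at most 1.20 per unit of those, with 0.0743% of 1346 genes called in the comparisons that called any.

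Single microglia were compared after 500 counts had been drawn from each cell, so that depth was equal. At least 1 Apoe count was found in 98.9%, 91.9%, 100% and 85.2% of microglia of the 4 old rTg4510 animals, against 61.8%, 57.1%, 50%, 92.4% and 31.4% in the 5 old WT animals. In excitatory neurons, taken here as cells that should make little Apoe, the shares were 54.6%, 40.5%, 65.0% and 27.5% in old rTg4510 and 41.7%, 40.7%, 21.6%, 60.5% and 27.1% in old WT animals. Microglia were above neurons of the same animal in all 9 animals, and the neuron shares stand for the background, so the shares are not read as those of cells that express the gene. Median depths before drawing were 889 to 1726 counts in these microglia and 1551 to 2241 in these neurons. The difference in share between the genotypes, 35.5 percentage points, had an exact permutation p of 0.048, and 0.457 after adjustment over the 32 single-cell comparisons, none of which passed. With so few animals the smallest p that the permutation test allowed was 0.0159. No comparison could therefore pass after adjustment, and the adjusted value decides nothing. Without thinning the difference was 18.9 points (exact permutation p = 0.079). When cells were thinned to 1000 counts, which left 4 old rTg4510 and 2 old WT animals, it was 7.15 points (exact permutation p = 0.40). Without cells that held more marker counts of another class the p was 0.11, and leaving out any 1 animal but old WT replicate 4 raised the p above 0.05, at 0.071 to 0.11.

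Higher counts separated the groups more clearly than the share. At least 20 of 500 counts were Apoe in 53.2%, 27.0%, 52.1% and 24.2% of old rTg4510 microglia, against 0%, 0%, 0%, 1.52% and 0% of old WT microglia. With 144, 21, 22 and 51 cells, the WT animals at 0 allow shares of up to 2.08%, 14.3%, 13.6% and 5.88%, for counting error only. The median cell held 20, 10.5, 20 and 5 counts in old rTg4510 animals, against 1, 1, 0.5, 3.5 and 0 in old WT animals. In replicates 1 and 3 the 10% of cells with the fewest held at most 4 and 6 counts, while in replicate 4 the 10% with the fewest held 0 and the 10% with the most at least 32. In young rTg4510 animals, replicate 1 had a median of 1 with a highest cell of 82, and 8.13% of its cells had at least 20 counts, and replicate 2 had a median of 4 with 9.68% at 20 or more. In young WT animals 0%, 0%, 0% and 2.63% of microglia reached 20 counts, where 0 allows up to 5.45%, 3.57% and 3.03%.

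**Figure D4:**
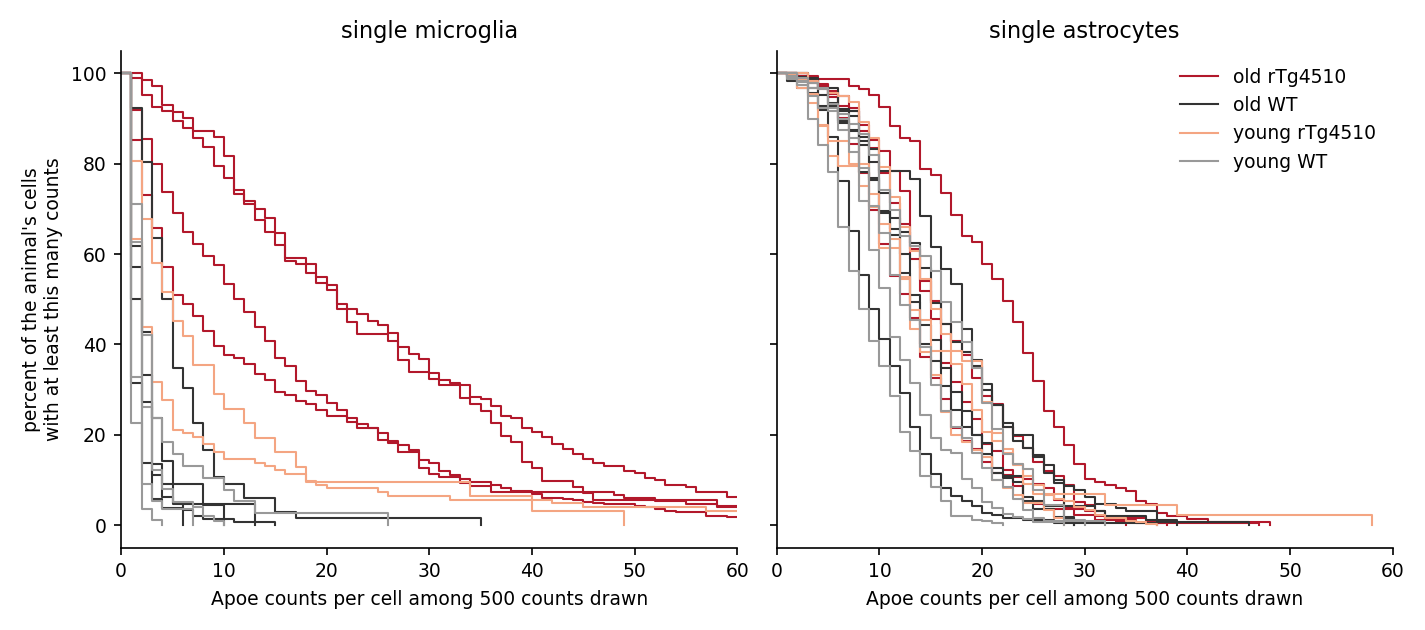
Percent of an animal's single microglia (left) and astrocytes (right) with at least the number of Apoe counts on the x axis, among 500 counts drawn from each cell. Each line is 1 old or young rTg4510 or WT animal that had at least 20 such cells, and P301L and rTta animals are not drawn. At 20 counts or more the 4 old rTg4510 lines in microglia hold 24.2% to 53.2% of cells, above all WT lines, while at 1 count the lines cross. In astrocytes 98.3% to 100% of cells hold at least 1 count in every animal drawn.

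The spread among cells beyond counting error was measured as variance minus mean, divided by the squared mean. It was 0.53, 0.94, 0.43 and 1.78 in old rTg4510 microglia, against 1.25, 1.81, 2.21, 0.94 and 2.14 in old WT microglia, and 5.17 and 1.92 in the 2 young rTg4510 animals, against 2.84, 0.64, 1.11 and 2.64 in young WT animals. Groups overlapped, and the old difference of -0.75 had an exact permutation p of 0.095. It turned to 0.20 without cells that held more marker counts of another class (exact permutation p = 0.49), and was -1.04 without old rTg4510 replicate 4 (exact permutation p = 0.036). Astrocytes were far more even, with 98.2% to 100% of cells holding Apoe in every animal and a spread of 0.10 to 0.21 in all but young rTg4510 replicate 3, at 0.46. Their median cell held 12, 14, 21 and 14 counts in old rTg4510 animals and 8, 13, 17, 14 and 12 counts in old WT animals.

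Genes that followed Apoe from cell to cell were sought within each old rTg4510 animal and averaged over its 4 animals (754 microglia, 435 genes). The 10 genes with the highest mean Spearman correlation were Fth1 (0.30), B2m (0.30), H2-D1 (0.28), Ctsb (0.25), Ftl1 (0.23), Ctsd (0.22), Cd63 (0.22), C1qa (0.22), Ctss (0.21) and C1qb (0.20). Fth1 and Ftl1 are the ferritin chains that store iron, B2m and H2-D1 form MHC class I, Ctsb, Ctsd and Ctss are lysosomal proteases, Cd63 is a tetraspanin of late endosomes, and C1qa and C1qb are chains of complement C1q. At the other end stood Malat1 (-0.23), a nuclear RNA, and Selplg (-0.22), Siglech (-0.20) and P2ry12 (-0.19), which mark homeostatic microglia. The median over all 435 genes was -0.01. These are weak correlations in sparse counts, given as a description, and cells of 1 animal share a library.

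**Figure D5:**
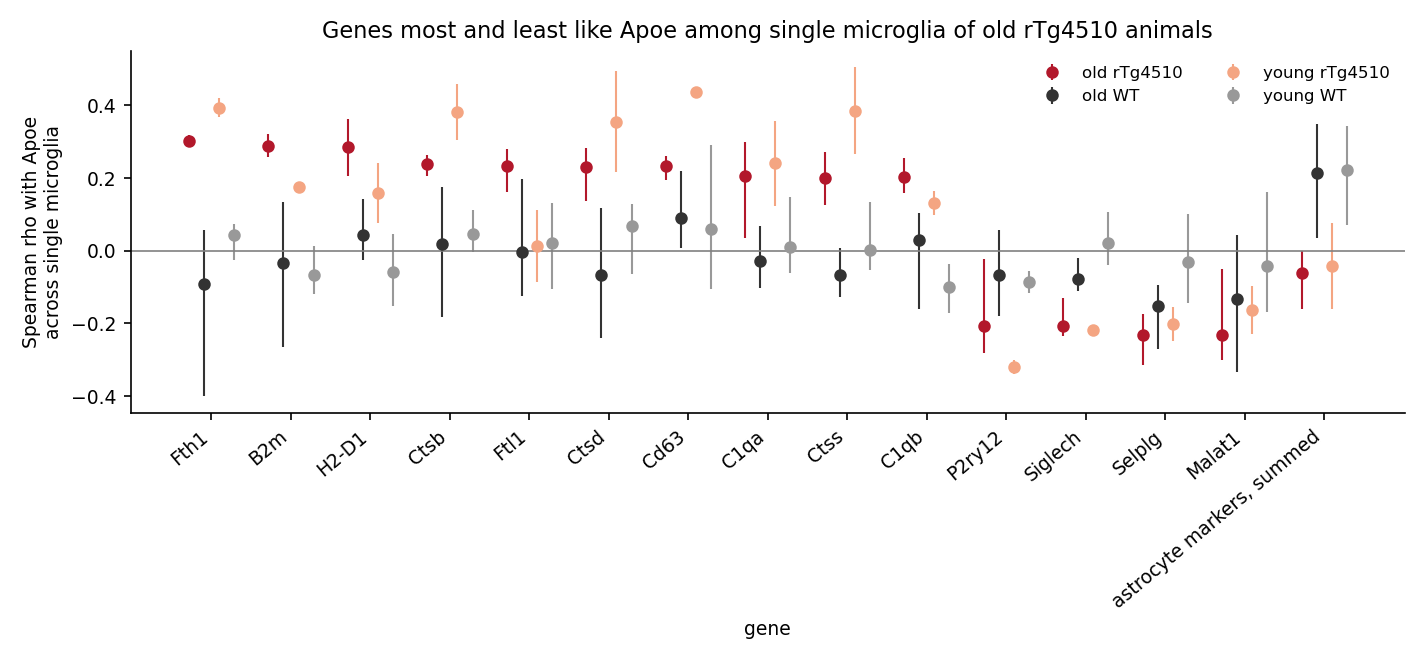
Mean Spearman correlation with Apoe across single microglia, with the lowest and highest animal as a line, for the 10 genes most like Apoe and 4 of those least like it in old rTg4510 animals, and for the summed astrocyte markers, in 4 groups. The genes were chosen for lying away from 0 in old rTg4510 animals. The astrocyte markers lie at -0.06 in old rTg4510 against 0.21 in old WT animals.

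In the 2 young rTg4510 animals, which the choice of genes did not use (154 microglia), the mean correlation was 0.44 for Cd63, 0.39 for Fth1, 0.39 for Ctss, 0.38 for Ctsb, 0.36 for Ctsd and -0.32 for P2ry12, and 0.01 for Ftl1. It was 0.24 for C1qa, 0.18 for B2m, 0.16 for H2-D1 and 0.13 for C1qb. In old WT animals (304 microglia) all these genes lay between -0.09 and 0.09, while Selplg stood at -0.20 in young rTg4510 and -0.15 in old WT animals, and Malat1 at -0.16 in young rTg4510 and -0.13 in old WT animals. The few Apoe counts per cell in old WT microglia limit the correlations that could be seen there. The summed astrocyte markers followed Apoe in WT microglia, at 0.21 in old and 0.22 in young WT animals, and did not in rTg4510 microglia, at -0.06 in old and -0.04 in young animals.

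In old WT astrocytes (522 cells of 5 animals, 415 genes) the 10 genes most like Apoe were Cst3 (0.42), Clu (0.40), Mt1 (0.34), Cpe (0.29), Sparcl1 (0.28), Aldoc (0.26), Dbi (0.23), Ptn (0.22), Tspan7 (0.21) and Slc1a2 (0.20). Clu encodes clusterin, another lipoprotein component of astrocytes, Cst3 a secreted protease inhibitor, and Slc1a2 the main glutamate transporter. Malat1 (-0.34), Gria2 (-0.28), Meg3 (-0.20), Luc7l3 (-0.17) and Sfrs18 (-0.17) were least like it. Over the 47 profiles of a class in a group, the genes most like Apoe by Pearson correlation of log2 CPM (9612 genes) were Mt1 (0.874), Slc1a3 (0.873), Prdx6 (0.857), Eva1a (0.851), Aqp4 (0.846), Mt2 (0.837), Apoc1 (0.835), Gna13 (0.833), Aldoc (0.833) and Cldn10 (0.829). Most of these are astrocyte genes, and the profiles share animals and libraries.

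Genes known to act with Apoe, or to change with it in microglia, were read from lists of genes grouped by role. The lists were drawn up with earlier results of these data known, so their counts are a description and not independent support. Among genes of the first stage of disease-associated microglia, 5 of the 5 tested rose in old rTg4510 over old WT microglia, at a median log2 change of 1.38, against -0.03 over all 4061 genes, of which 3.60% were called higher. They were Ctsb, B2m, Tyrobp, the signalling partner of Trem2, Ctsd and Fth1. Tyrobp stood at 3896, 3698, 2770 and 2696 CPM in old rTg4510 microglia, against 1215, 1484, 1554, 1494 and 1504 CPM in old WT microglia, with no overlap (log2 change 1.38 ± 0.23).

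Of the later stage, 7 of 8 tested rose (3.60% over all genes), with a median of 1.56, and Csf1 (1.47 ± 0.52) did not pass (edgeR adjusted p = 0.12). Lpl, the lipoprotein lipase, stood at 364, 420, 647 and 423 CPM in old rTg4510 microglia, against 13.4, 34.5, 36.1, 34.5 and 37.6 CPM in old WT microglia (log2 change 4.21 ± 0.41). Trem2, a receptor that binds lipids and apolipoproteins, stood at 2535, 2480, 1972 and 2083 CPM in old rTg4510 microglia, against 1302, 1449, 867, 1310 and 1598 CPM in old WT microglia (log2 change 0.99 ± 0.22, edgeR adjusted p = 0.0031). Neither gene overlapped between the groups, and Axl, Cd9, Ctsl, Timp2 and Ccl6 were the other genes that rose. At the young age, where 0.148% of all genes were called higher, 2 of the 8 were called. Lpl stood at 474 and 514 CPM in young rTg4510, against 0, 37.5, 28.6 and 37.4 CPM in young WT microglia (log2 change 4.09 ± 0.47), and Axl was called at 49.3 and 107 CPM in young rTg4510 microglia with no count in 4 young WT animals.

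The other lists held fewer called genes in microglia, to be read against the same 3.60% of all genes. Of receptors and sorting proteins 1 of 4 tested rose (median 0.16), namely Trem2, while the uptake receptor Lrp1 was at 0.26 ± 0.27 and Sort1 at -0.45 ± 0.34. Of lipid loading and export genes 1 of 4 rose (median 0.84), namely Lpl, while the cholesterol exporters Abca1 (0.99 ± 0.36, edgeR adjusted p = 0.11) and Abcg1 (0.69 ± 0.38) and the phospholipid transfer protein Pltp (-1.02 ± 0.54) did not pass. Neither of 2 other apolipoproteins tested (Apod 1.14 ± 0.88, Clu -0.38 ± 0.54), neither of 2 nuclear regulators (Nr1h2, a liver X receptor, -0.51 ± 0.45, and Mylip -0.03 ± 0.28) and not the 1 tested neighbour on the chromosome (Clptm1 -0.06 ± 0.41) passed. Apoc1, a neighbour of Apoe, was too low to be tested, with 76 counts in old rTg4510 microglia (130, 38.3, 55.9 and 6.13 CPM) and 2 counts in old WT microglia.

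In old astrocytes, where 0.376% of all genes were called higher, 1 of 3 loading and export genes rose (median 0.40, against -0.01 over all genes), namely Abca1, at 280, 160, 184 and 171 CPM in old rTg4510, against 99.7, 73.8, 70.9, 80.6 and 132 CPM in old WT animals (log2 change 1.15 ± 0.28, edgeR adjusted p = 0.043). B2m rose there as well (1.36 ± 0.30, edgeR adjusted p = 0.035), as 1 of 5 first-stage genes (median 0.85). Microglia markers in these astrocytes summed to 406 to 1672 CPM in old rTg4510 and 331 to 567 CPM in old WT animals, and their part in these changes was not tested. None of the 9 receptors and sorting proteins, 3 apolipoproteins, 6 later-stage genes and 3 neighbours tested in astrocytes passed edgeR's threshold, and among these Clu was at 0.48 ± 0.21.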

How the data were processed

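Single-cell libraries of the hippocampus of 22 mice were sequenced by Drop-seq. The authors deposited 1 table of raw counts per gene and cell barcode, with no normalization. Per the submitters' processing notes, bcl2fastq 2.18.0.12, STAR 2.2 and mm10 were used. Per the labels, reads carried a molecular identifier, but the counting step is not given in the sources used here. Per the labels' protocols, 2000 beads were amplified per tube.

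Cells were assigned to animals by the prefix of their barcode, matched to the sample titles, and all columns of values were used. Barcodes with at least 300 counts were kept. Clusters came from scanpy 1.11.5 without Apoe (2000 variable genes, 40 principal components, 15 neighbours, Leiden resolution 1) and were named from marker lists, and 2092 named cells had more marker counts of another class. Doublets were not called. Counts were summed per animal and class where at least 20 cells were found, and tested with edgeR 4.0.16 (quasi-likelihood, TMM, filterByExpr), with 1 fit per class and Benjamini-Hochberg adjustment over all genes of the class, called at an adjusted p under 0.05. DESeq2 1.42.0 was an alternative. Single cells were thinned to 500 counts, and correlations averaged over 10 draws. On simulated counts of the old genotype comparison, edgeR called 88.2% of genes changed by 2 on the log2 scale in microglia (3750 genes) and 93.8% in astrocytes (5064 genes).

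The gene was taken by name. The marker and gene lists were chosen with earlier results of these data known. The other genes named are list members called between old rTg4510 and old WT animals, with examples that were not called, and the 10 genes most like Apoe and 5 least like it, of which 1 in microglia is not reported here. The genes Apoc2, Apoc4, Apob, Apoh, Apom, Lrp2, Cst7, Clec7a and Cblc were not analysed here. Nectin2 was on its list under its older name, Pvrl2, as well, and was read under that name. P-values measure the spread between animals. Median counts per kept cell limit the precision of single-cell values, and intervals for counting error are not given for sums.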

Additional observations from a re-analysis of the deposited data

Results flagged for a closer look

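In groups of 4 to 10 animals the highest or lowest animal was set against the rest by Dixon's test, which chance passes in about 1 in 20 groups, and 37 groups were tested. In old WT animals Apoe in excitatory neurons reached 2125 CPM in replicate 4, with the nearest animal at 897 CPM, and in interneurons 2543 CPM in the same animal, with the nearest at 753 CPM. In oligodendrocytes old rTg4510 replicate 3 stood apart at 10968 CPM, with the nearest animal at 5789 CPM, and young WT replicate 4 at 2414 CPM, with the nearest at 1706 CPM. The share of astrocytes with Apoe counts was 99.4% in old rTg4510 replicate 4 and 100% in the other animals of its group. Those animals were tied at the highest share possible, so any lower value would have been flagged, and this flag says little.

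The genotype difference was larger in microglia than in astrocytes of the same old animals, by 3.25 on the log2 scale between old rTg4510 and old WT animals. This difference was tested within animals (exact permutation p = 0.0159, and 0.127 adjusted over 8 comparisons, where no comparison could pass after adjustment).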

How the results depend on the processing

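No paired analysis was possible because the labels give animal numbers and no replicate numbers shared between groups. The term for the range of animal numbers, below, sorts the animals of an age into 2 ranges and pairs none. In microglia of old rTg4510 against old WT animals, the log2 change was 2.71 with cells of at least 1000 counts. Leaving out 1 animal at a time gave -0.057 to 1.50 for old WT against young WT, 4.41 to 4.84 for old rTg4510 against rTta, 3.25 to 3.82 against P301L (3.81 without both animals that share barcodes, an alternative chosen after seeing the data), -0.51 to 0.38 for P301L against old WT and -0.16 to 1.39 for the interaction. P301L against old WT was 0.25 with classes by marker sums and 0.029 with cluster 14 added, chosen after seeing the data. In precursors, old WT against young WT ran from 1.28 to 1.62 without 1 animal and was 1.43 with at least 50 cells per animal. In oligodendrocytes, old rTg4510 against P301L ran from 0.77 to 1.23, and was 1.10 with only the groups compared, 0.70 with Apoe among the genes clustered and 0.77 in cluster 8 alone, chosen after seeing the data. Old rTta against old WT ran from -1.03 to -0.82, and was -0.76 by marker sums and -1.02 without both animals that share barcodes. The cause was not tested.

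The share of single microglia with Apoe counts differed between old rTg4510 and old WT by 7.15 points when thinned to 1000 counts, 18.9 unthinned, 36.3 without mixed cells and 28.7 to 43.9 without 1 animal. The spread differed by 0.20 without mixed cells and -1.04 to -0.59 without 1 animal. In astrocytes the share differed by -0.21 at 1000 counts, and the spread by 0.16 unthinned and 0.0037 without mixed cells, with -0.12 in young animals unthinned. Astrocyte levels by marker sums were 24924 CPM in old rTg4510 and 20526 CPM in old WT animals.

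Counts of called genes moved by over 1.5 times as follows. For microglia of old rTg4510 against old WT, 202 genes became 63 with cells of at least 1000 counts, 134 with Apoe among the genes clustered, and 120, 121 and 126 without old rTg4510 replicate 1 or 2 or old WT replicate 1. Against rTta, 156 became 94 without both animals that share barcodes, 89 without microglia holding astrocyte marker counts, and 65 to 96 without 1 rTta animal. Against P301L, 296 became 122 at 1000 counts, 117 without microglia holding astrocyte marker counts, and 54, 135 and 197 without P301L replicate 1 or 2 or old rTg4510 replicate 2. For precursors of old WT against young WT, 6 became 21 with DESeq2, 69 with no filter, 22 with only the groups compared and 15 with a term for the range of animal numbers. The precursor count was 3 by marker sums, 1 each at 1000 counts, without mixed cells and in cluster 18, and 0 with at least 50 cells. Leaving out 1 animal at a time gave 0 to 9 there (0 without old WT replicate 4 or young WT replicate 1, 2 or 4). For oligodendrocytes, old rTg4510 against young rTg4510 had 135, and 75 by marker sums and 69 and 83 without young rTg4510 replicate 3 or 2, and old WT against young WT had 192, and 122, 117 and 94 without old WT replicate 2 or 4 or young WT replicate 3. Old rTg4510 against rTta had 74, and 45 without both animals that share barcodes and 40 to 49 without 1 rTta animal. Against P301L there were 75, and 125 with DESeq2, 115 with no filter, 36 with Apoe clustered, 15 without both animals, 35 in cluster 8, and 1 to 151 without 1 animal. Old rTta against old WT had 80, and 42 without both animals and 34 to 47 without 1 rTta animal. Old rTg4510 and old WT animals had 21 to 344 microglia each, where 28.4% of simulated log2 changes of 1 were called, and the young comparison, with 2 rTg4510 animals, was not simulated.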

Other observations

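Cells outside the named classes also held Apoe. Cluster 14, left unnamed because it carried markers of microglia together with perivascular macrophage genes such as Mrc1 and Stab1, had 463 cells. Its Apoe stood at 49535, 17906 and 15640 CPM in the 3 old rTg4510 animals with at least 20 such cells, at 22986 and 21821 CPM in 2 old P301L animals, at 25225 and 14301 CPM in 2 old rTta animals and at 7732, 11182 and 18105 CPM in 3 old WT animals. In young rTg4510 replicate 1 it was 5020 CPM. Old rTg4510 and old WT animals overlapped in this cluster, which was not tested.

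Cluster 25, with 950 cells, was led by Igfbp2, Prlr, Kl and Enpp2. Prlr and Kl are on the list of choroid plexus genes, but the cluster stayed unnamed. It held 544 of its cells in old rTg4510 replicate 3, where Apoe was 14344 CPM, and its Apoe was 16344 CPM in old WT replicate 4, 10263 and 8912 CPM in young rTg4510 replicates 2 and 3 and 9592 CPM in young WT replicate 3. Summed astrocyte markers there were 448 to 1096 CPM, so that Apoe was 10.5 to 21.4 per unit of them.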
